A study of Mus musculus with 12 samples.

Results

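The 41 genes described here build and run the machinery that copies chromosomal DNA in S phase. They were listed by name, and for each the probe set with the highest mean log2 level over all arrays was kept among those annotated to that gene alone. All 41 were measured, out of 12393 genes on the arrays. Total RNA of 12 mouse samples in 4 groups of 3 was hybridised to Affymetrix expression arrays, and the deposited values are linear intensities, used below as log2(intensity + 1). The comparisons asked how estradiol acts on a macrophage line in culture, and how macrophages washed from the lungs of pregnant and control mice differ.

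The unstimulated and estradiol groups were RAW264.7 cells, an established mouse macrophage-like line grown in medium with serum. The estradiol group was cultured overnight with estradiol at 1 ug/mL, and the unstimulated group is described in the series' design text as receiving vehicle. The control and pregnant groups were macrophages from bronchoalveolar lavage, a wash of the airways and alveoli, of control and of intact pregnant mice, with no treatment in culture per the design text. The treatment text of the labels names estradiol for every sample, which conflicts with the design text for the lavage samples and the unstimulated cells. Groups were therefore taken from the group label. Neither the strain, the age and the sex of the control mice nor the stage of pregnancy is given in the sources used here. RAW264.7 is a single line, so its replicates share one genotype. Whether the 3 samples of a group are separate cultures or animals is not stated, so the p-values reflect the spread among these samples only, part of which may be technical.

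Replication starts at origins, where the origin recognition complex, Cdc6 and Cdt1 load the Mcm2-7 helicase in G1, and geminin blocks reloading later in the cycle. Mcm10 and Cdc45 help to turn the loaded helicase into a moving fork, primase and polymerase alpha lay down primers, the replication factor C complex loads the PCNA clamp, and polymerases epsilon and delta extend the strands. Many of these genes are transcribed under E2F factors around the passage from G1 to S phase, so their RNA tends to be higher in cycling cells than in resting ones. Resident alveolar macrophages divide slowly, whereas RAW264.7 grows continuously.

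RefSeq promoter windows (GRCm38.p6, 250 bases before to 50 after a gene's start) were held for 35 of the 41 genes, and not for Ccne2, Gmnn, Mcm4, Pole, Prim2 and Rfc2. E2F-type letters (TTTCCCGC, TTTCGCGC, TTTGGCGC or TTTGCCGC, on either strand, overlapping matches allowed) were in the windows of 12 of the 35 genes (34.3%), against 2.6% of 27025 genes and 2.26% of 32851 windows in the table. The 12 were Cdc6, Cdt1, Lig1, Mcm3, Mcm5, Mcm6, Mcm7, Orc1, Pola1, Pold1, Pole2 and Rfc3. CCAAT boxes (CCAAT or ATTGG) were in 22 of the 35 (62.9%), against 41.1% of genes. The cell cycle homology region (TTTGAA or TTCAAA) was in 4 of the 35 (11.4%), against 20.2% of genes. A match is a description of the letters and not a binding site. The 250 bases before the start are printed 5′ to 3′ on the gene's strand for 4 genes with E2F-type letters before the start and for 2 genes without any, Rfc5 and Tk1, which had the smallest p-values among the genes called lower with estradiol. E2F-type letters and CCAAT boxes are in capitals, and in Mcm5 and Mcm6 a pair of E2F-type matches on opposite strands overlap and run together. Rfc3 has a further E2F-type match just after its start, outside the stretch printed.
Mcm5, chr8:75109259-75109508, plus strand: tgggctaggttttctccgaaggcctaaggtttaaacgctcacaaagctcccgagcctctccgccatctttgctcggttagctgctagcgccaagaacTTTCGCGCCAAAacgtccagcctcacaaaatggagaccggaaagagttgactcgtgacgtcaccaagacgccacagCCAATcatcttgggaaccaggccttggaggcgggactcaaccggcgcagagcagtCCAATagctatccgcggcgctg
Mcm6, chr1:128359706-128359955, minus strand: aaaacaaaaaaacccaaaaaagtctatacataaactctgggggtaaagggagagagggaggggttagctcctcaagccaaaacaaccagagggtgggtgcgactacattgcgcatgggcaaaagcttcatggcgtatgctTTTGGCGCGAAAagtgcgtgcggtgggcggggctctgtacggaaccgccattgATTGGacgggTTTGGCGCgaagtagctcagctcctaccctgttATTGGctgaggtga
Cdc6, chr11:98907901-98908150, plus strand: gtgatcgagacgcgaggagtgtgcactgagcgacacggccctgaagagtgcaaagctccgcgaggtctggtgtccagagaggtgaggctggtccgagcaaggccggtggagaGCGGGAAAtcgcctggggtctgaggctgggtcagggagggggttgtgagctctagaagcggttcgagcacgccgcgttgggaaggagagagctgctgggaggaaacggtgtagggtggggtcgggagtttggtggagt
Rfc3, chr5:151651209-151651458, minus strand: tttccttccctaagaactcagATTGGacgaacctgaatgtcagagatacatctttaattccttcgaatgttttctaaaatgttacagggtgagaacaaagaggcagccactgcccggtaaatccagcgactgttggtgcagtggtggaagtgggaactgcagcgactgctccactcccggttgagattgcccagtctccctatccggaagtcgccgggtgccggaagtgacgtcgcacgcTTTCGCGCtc
Rfc5, chr5:117389024-117389273, minus strand: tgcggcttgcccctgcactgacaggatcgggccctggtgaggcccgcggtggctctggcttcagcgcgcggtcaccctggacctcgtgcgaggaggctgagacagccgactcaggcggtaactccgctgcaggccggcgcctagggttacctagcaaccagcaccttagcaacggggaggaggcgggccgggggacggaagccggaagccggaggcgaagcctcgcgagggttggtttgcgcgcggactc
Tk1, chr11:117826015-117826264, minus strand: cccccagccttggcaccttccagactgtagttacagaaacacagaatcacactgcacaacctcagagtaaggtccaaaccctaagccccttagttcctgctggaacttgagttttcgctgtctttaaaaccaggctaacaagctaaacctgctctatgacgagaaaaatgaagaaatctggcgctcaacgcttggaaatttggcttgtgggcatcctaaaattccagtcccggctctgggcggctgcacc

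Array medians lay between 369.3 and 392.6 intensity units. The labelled cell types were checked against markers: 7 of 8 macrophage markers lay above the array's 40th percentile on every array, with Mertk below it on the RAW264.7 arrays and Itgam below it on the lavage arrays, and the alveolar macrophage list did so for 7 of 7 genes on lavage arrays and 2 of 7 on RAW264.7 arrays. Estradiol 2 stood apart in RNA quality, with an actin 3′ minus 5′ difference of 0.74 log2 units, where the remaining RAW264.7 arrays had 0.39 to 0.48. Its transferrin receptor difference was 4.31, against 3.16 to 3.43. Of the lavage arrays, Pregnant 2 had the largest differences, 0.39 for actin (0.26 to 0.35 on the others) and 3.86 for transferrin receptor (2.83 to 3.47). The 5′ transferrin receptor probe set was dim on the lavage arrays, at log2 levels of 4.43 to 4.78. The number of arrays limits the precision: the median 95% interval of a gene's log2 change was ± 0.15 in the estradiol comparison and ± 0.29 in the pregnancy comparison. In bulk RNA, fewer cycling cells and less replication RNA per cell cannot be told apart.

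The largest contrast in these genes was between the cell sources. In unstimulated RAW264.7 cells against control lavage macrophages, limma called 40 of the 41 genes higher and 0 lower at an adjusted p under 0.05 (0 lower at an unadjusted p under 0.05 too), beside 34% of all 12393 genes called higher and 27.9% called lower. The median log2 change was 1.03, against 0.07 over all genes. The contrast was not particular to these 41 genes. In further lists, described below, 19 of 19 mitosis genes were called higher (100%), with a median of 2.5. Of 23 other replication genes, 21 were called higher (91.3%) and 2 lower (8.7%), with a median of 1.11. Of 23 G1/S control genes, 13 were called higher (56.5%) and 8 lower (34.8%), with a median of 0.42. The lavage levels were not low in most cases: 39 of the 41 genes lay above the 40th percentile on each lavage array, and 40 on each RAW264.7 array. The sources also differ in culture, in the animal they came from and in the other cells present, and these cannot be told apart from the cell type.

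**Figure D1:**
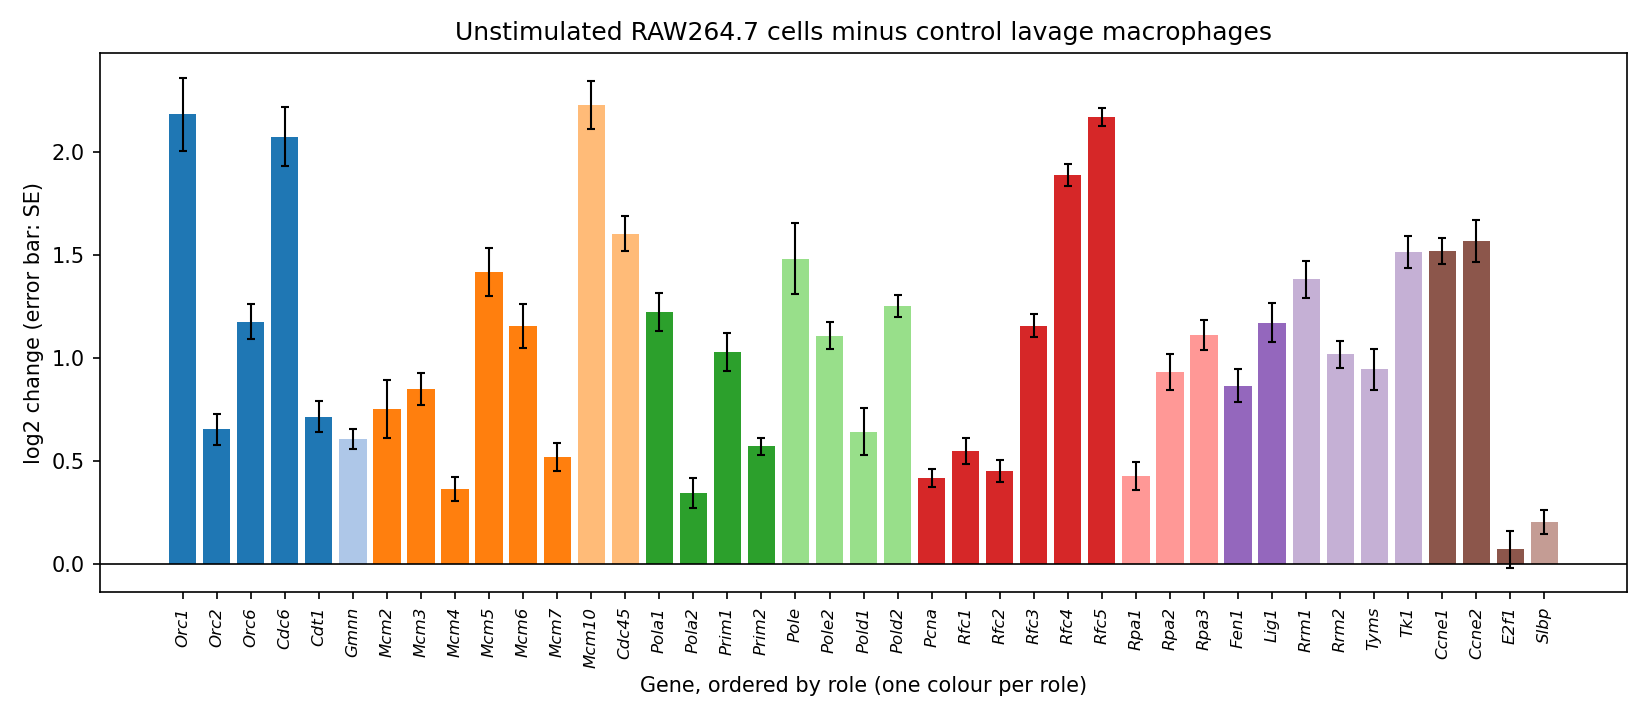
Bars give the log2 change of each of the 41 genes between unstimulated RAW264.7 cells and control lavage macrophages, with SE, 3 arrays a group, and one colour per role. Mcm10, Orc1, Rfc5 and Cdc6 exceed 2 log2 units, and E2f1 lies near 0.

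The size of the difference varied within roles. Among licensing genes, Orc1, the ATPase that nucleates the origin recognition complex, lay above the 40th percentile on all 6 RAW264.7 arrays and on 0 of the 6 lavage arrays. Its fitted change of 2.18 ± 0.18 (SE) log2 units (limma adjusted p = 6.55e-05) therefore rests on dim lavage values, and with the lavage level set to the 40th percentile Orc1 was at least 2.83-fold higher in RAW264.7. Cdc6, the loading ATPase, was 2.07 ± 0.14 higher, and Orc2, a core subunit, was 0.65 ± 0.075 higher on its kept probe set and 1.62 and 1.85 on the other 2. Mcm10, which helps to activate the helicase, had the largest change among the kept probe sets, 2.23 ± 0.12 (4.68-fold, 95% interval 1.95 to 2.50), and Cdc45, a subunit of the active helicase, was at 1.60 ± 0.084. The 6 helicase subunits, which act as one ring, ranged from 0.37 for Mcm4 to 1.42 for Mcm5.

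The clamp loader split into subunits with large and small differences. Rfc5 was 2.17 ± 0.045 higher (adjusted p = 1.35e-07) and Rfc4 1.89 ± 0.053 higher, Rfc3 was 1.16 ± 0.056 higher, and Rfc1 and Rfc2 were 0.55 ± 0.063 and 0.45 ± 0.052 higher. Pcna, the clamp itself, was 0.42 ± 0.042 higher. Thymidine kinase Tk1, which salvages thymidine, was 1.51 ± 0.078 higher, and the ribonucleotide reductase subunits Rrm1 and Rrm2 were 1.38 ± 0.090 and 1.02 ± 0.067 higher. These sizes depend on the probe set: the other one of Rrm1 gave 2.0, and the other 2 of Rrm2 gave 2.20 and 3.15, the last above the value of Mcm10.

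Of the G1/S regulators, the cyclin E genes Ccne1 and Ccne2 were 1.52 ± 0.063 and 1.57 ± 0.10 higher in RAW264.7. E2f1, an activating E2F factor, was the one gene not called, with log2 levels of 10.09, 10.03 and 10.04 on the unstimulated arrays and 9.80, 10.14 and 10.00 on the control arrays. These groups overlapped, and the change was 0.074 ± 0.090 (95% interval -0.14 to 0.29, limma adjusted p = 0.501). A second E2f1 probe set gave -0.03. Slbp, the factor that binds the stem-loop of histone mRNA, had the smallest difference among the called genes, 0.21 ± 0.059. Slbp kept its call in 10 of 15 alternatives, with adjusted p up to 0.29, and its second probe set gave -0.016.

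With estradiol few replication genes of RAW264.7 passed the test. Limma called 0 of the 41 genes higher, beside 6.75% of all genes, and 4 lower (9.76%), beside 4.66% of all genes. The 4 were Tk1, Rfc5, Prim2 and Tyms, with log2 changes between -0.44 and -0.18. The median log2 change of the 41 was -0.045, against 0.017 over all genes, and 14 genes were positive and 27 negative (19 and 22 with the arrays set to a common median). At an unadjusted p under 0.05, 4 genes were positive (9.76%, beside 15.7% of all genes) and 11 negative (26.8%, beside 11.2%). Groups did not overlap in 11 genes lower with estradiol (26.8%, beside 14.9% of all genes) and in 5 higher (12.2%, beside 19.9% of all genes). Of the 41 genes, 23 had several probe sets, and in 9 of these the probe sets changed in opposite directions.

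Leaving out Unstimulated 1, 2 or 3 in turn ended all 4 calls, and leaving out Estradiol 1, 2 or 3 left 2, 5 and 1 genes called lower, the 5 including Gmnn. Estradiol 2 was the array with the larger actin difference. It was the highest of the 6 RAW264.7 arrays for 19 of the 41 genes and the lowest for 8. The median was -0.089 without Estradiol 2. It was -0.027 without Unstimulated 3 and -0.014 without Estradiol 3. Over the alternatives tried, Tk1 kept its call in 9 of 15, Rfc5 in 8 of 15, Prim2 in 4 of 15 and Tyms in 6 of 14, with adjusted p up to 0.368, 0.133, 0.152 and 0.251. The count called lower was 2 with the arrays set to a common median, 8 with dim genes left out or with a trended robust prior, and 16 with array weights, and these last 3 fits called 1, 2 and 3 genes higher. The shares of all genes called in the alternatives are not given here, so these counts stand without a background. The estimation of the array weights stopped before it reached its convergence tolerance here. What the RNA quality of Estradiol 2 contributed was not tested.

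**Figure D2:**
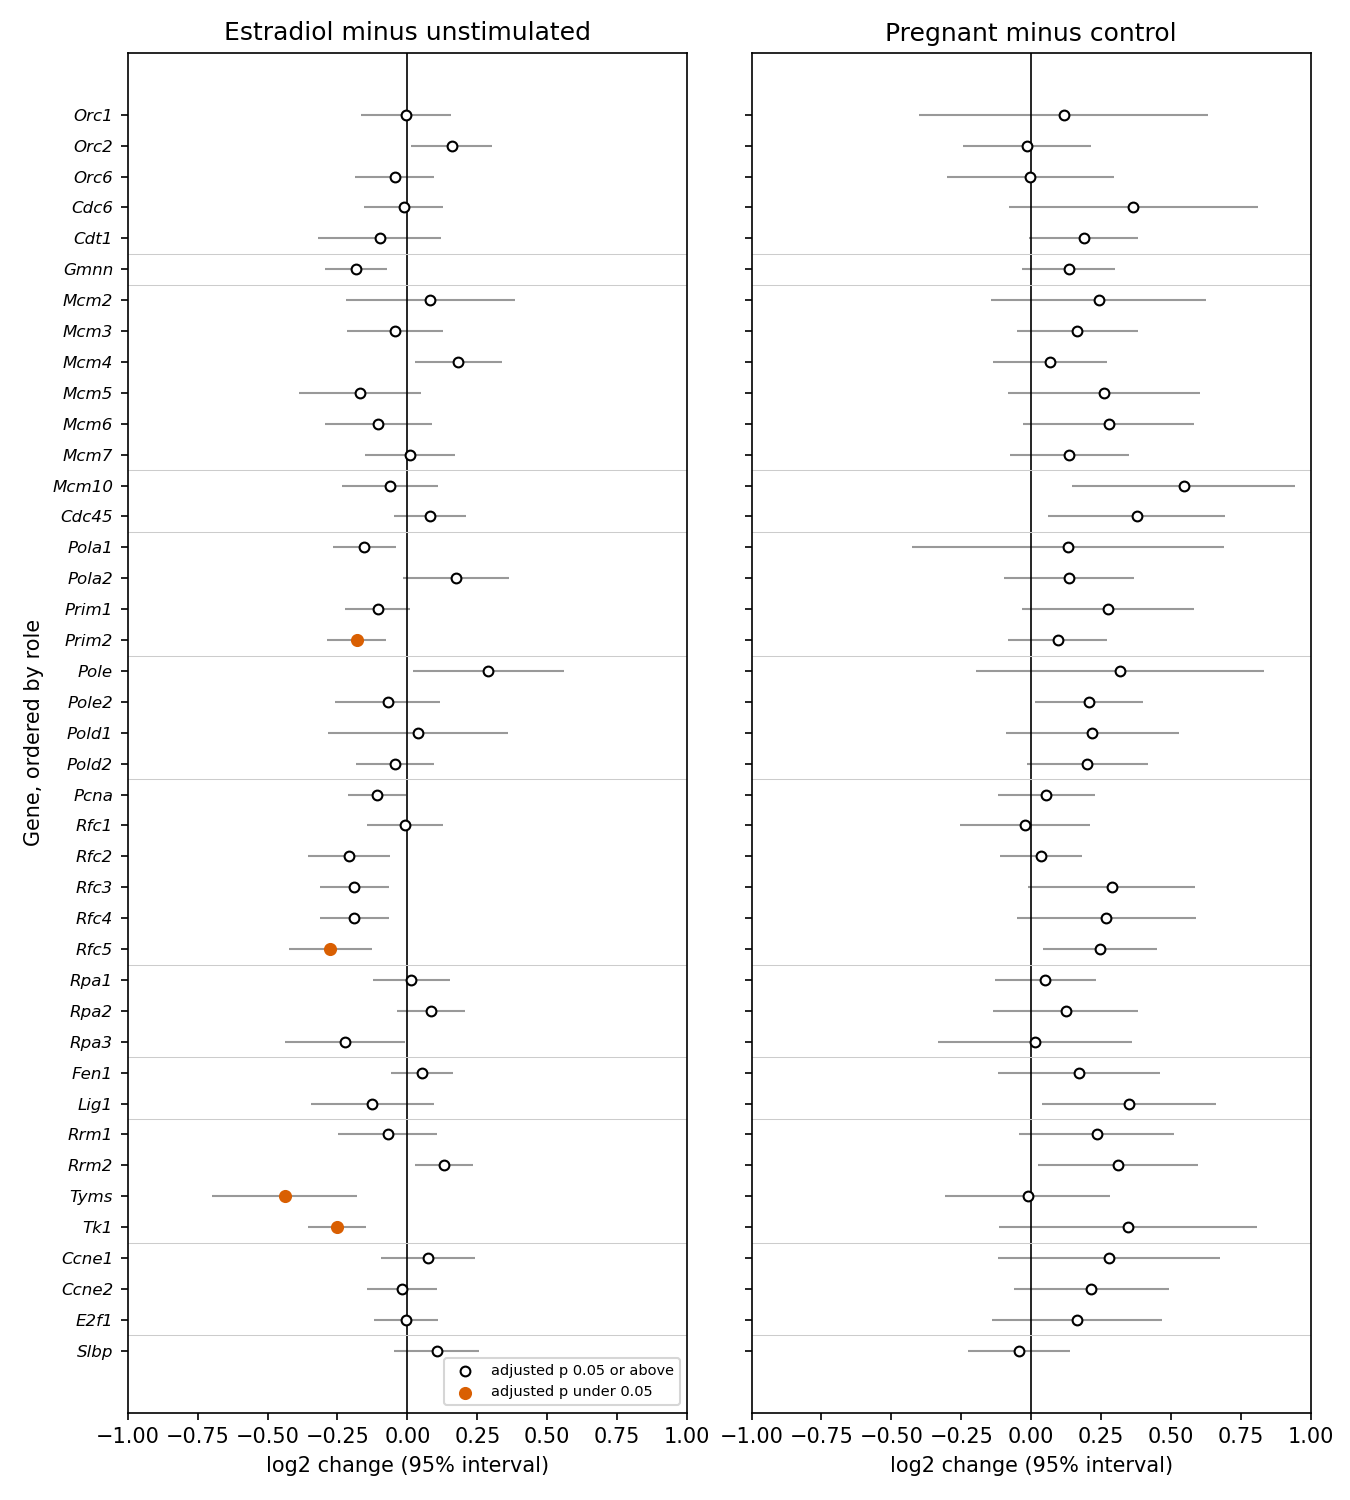
Log2 changes of the 41 genes with 95% intervals from limma, for estradiol against unstimulated RAW264.7 cells (left) and pregnant against control lavage (right), 3 arrays a group. Filled points mark the 4 genes at an adjusted p under 0.05, all on the left, and 36 of 41 points on the right lie above 0 with wider intervals.

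Genes of nucleotide supply held 2 of the 4 calls, 50% of the role, beside 4.66% of all genes called lower. Tk1 had log2 levels of 11.83, 11.82 and 11.82 on the unstimulated arrays and 11.57, 11.59 and 11.55 on the estradiol arrays. Its groups were tight and did not overlap, and Tk1 fell by 0.25 on the log2 scale (1.19-fold lower, SE 0.044, limma adjusted p = 0.0140). Tyms, thymidylate synthase, which makes dTMP, had log2 levels of 6.54, 6.68 and 6.59 on the unstimulated arrays and 6.41, 6.08 and 6.01 on the estradiol arrays. Tyms fell by 0.44 on the log2 scale (SE 0.11, limma adjusted p = 0.0473), but its probe set lay above the 40th percentile on 0 arrays, and the other probe sets of Tyms gave log2 changes of 0.11 and -0.18. Rrm2, the small subunit of ribonucleotide reductase, gave log2 levels of 12.94, 12.92 and 12.94 on the unstimulated arrays and 13.06, 13.08 and 13.05 on the estradiol arrays. Its estradiol arrays were all higher, the change was 0.13 ± 0.044 (limma adjusted p = 0.106), and its 3 probe sets ranged from -0.28 to 0.13. Rrm1 was at -0.071 ± 0.075, with its other probe set at -0.35.

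The clamp and its loader lay on one side. All 6 genes were negative with a median of -0.19 (5 of 6 with the arrays set to a common median, where Rfc1 was at 0.019). Groups were apart in 5, all lower (83.3%, beside 14.9% of all genes), and 1 was called lower (16.7%, beside 4.66%). Rfc5, a small subunit of the loader, had log2 levels of 11.36, 11.44 and 11.39 on the unstimulated arrays and 11.04, 11.10 and 11.23 on the estradiol arrays. The estradiol arrays all lay below the unstimulated ones, and Rfc5 fell by 0.28 on the log2 scale (SE 0.063, 95% interval -0.42 to -0.13, limma adjusted p = 0.0353). Rfc3, another small subunit, had log2 levels of 10.46, 10.46 and 10.44 on the unstimulated arrays and 10.32, 10.19 and 10.28 on the estradiol arrays. Its groups were also apart, with a change of -0.19 ± 0.051 that missed the threshold (limma adjusted p = 0.0618). Rfc4 and Rfc2 gave -0.19 ± 0.051 and -0.21 ± 0.062, Pcna gave -0.11 ± 0.043, and Rfc1, the large subunit, gave -0.0086 ± 0.058. Other probe sets of Rfc1 gave -0.047 and -0.29, and those of Rfc3 and Rfc4 gave -0.38 and -0.15.

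Primase and polymerase alpha were mixed. Prim2, the large primase subunit, had log2 levels of 11.12, 11.13 and 11.11 on the unstimulated arrays and 10.94, 10.91 and 10.96 on the estradiol arrays. The groups were apart, and Prim2 fell by 0.18 on the log2 scale (SE 0.044, limma adjusted p = 0.0443). Pola1, the catalytic subunit of polymerase alpha, had log2 levels of 10.25, 10.28 and 10.20 on the unstimulated arrays and 10.09, 10.10 and 10.07 on the estradiol arrays. Its groups were apart too, and its change of -0.15 ± 0.047 was not called (limma adjusted p = 0.0861). Prim1 gave -0.11 ± 0.049 and Pola2, the regulatory subunit, 0.17 ± 0.080.

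**Figure D3:**
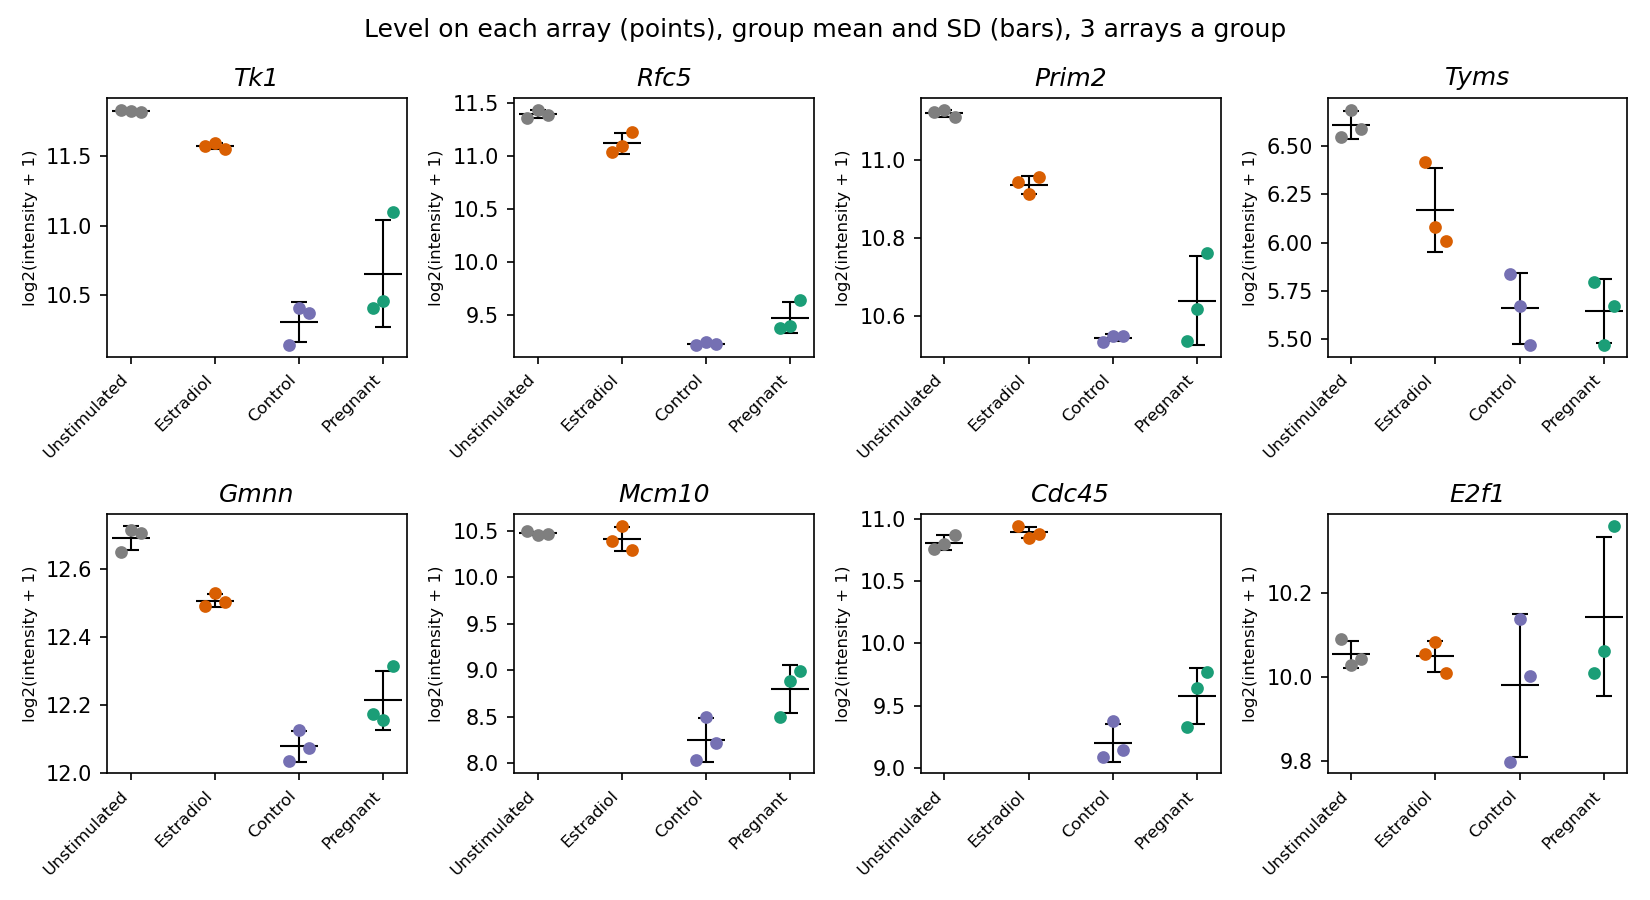
Log2 levels of 8 genes on each array (points) with the group mean and SD (bars), 3 arrays a group, each panel on its own axis. Tk1, Rfc5, Prim2 and Tyms lie lower on all 3 estradiol arrays than on the unstimulated arrays, and the E2f1 groups overlap.

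Licensing genes showed no call. Orc2 had log2 levels of 11.11, 11.00 and 11.03 on the unstimulated arrays and 11.16, 11.16 and 11.30 on the estradiol arrays. All estradiol arrays were higher, with a change of 0.16 ± 0.061 (limma adjusted p = 0.152), but the 3 Orc2 probe sets ranged from -0.15 to 0.16. Cdt1, the loading factor that geminin binds, had log2 levels of 12.72, 12.76 and 12.71 on the unstimulated arrays and 12.47, 12.83 and 12.59 on the estradiol arrays. Its groups overlapped (-0.100 ± 0.093), and Orc1, Orc6 and Cdc6 were at -0.0054, -0.045 and -0.013. Gmnn, the gene of geminin, had log2 levels of 12.65, 12.71 and 12.71 on the unstimulated arrays and 12.49, 12.53 and 12.50 on the estradiol arrays. Its groups were apart, and its change of -0.18 ± 0.047 just missed the threshold (limma adjusted p = 0.0514).

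The helicase genes were mixed, and none was called. The 6 genes split into 3 positive and 3 negative with a median of -0.018 (0.0098 with the arrays set to a common median). Mcm4 had log2 levels of 12.33, 12.36 and 12.35 on the unstimulated arrays and 12.58, 12.60 and 12.40 on the estradiol arrays. All estradiol arrays were higher (0.18 ± 0.066, limma adjusted p = 0.132), while its second probe set gave -0.041. Mcm6 had log2 levels of 12.61, 12.60 and 12.62 on the unstimulated arrays and 12.37, 12.68 and 12.48 on the estradiol arrays. Estradiol 2 was the highest of these and Estradiol 1 the lowest, so the groups overlapped (-0.10 ± 0.081). Mcm2, Mcm3, Mcm5 and Mcm7 gave 0.082, -0.044, -0.17 and 0.0081. Over their probe sets, Mcm2 ranged from -0.16 to 0.082, Mcm3 from -0.31 to -8.6e-04 and Mcm7 from -0.088 to 0.060. For helicase activation, Mcm10 had log2 levels of 10.50, 10.46 and 10.47 on the unstimulated arrays and 10.39, 10.55 and 10.29 on the estradiol arrays and a change of -0.062 ± 0.073. Cdc45 had log2 levels of 10.76, 10.80 and 10.87 on the unstimulated arrays and 10.94, 10.85 and 10.88 on the estradiol arrays, which overlapped (0.081 ± 0.054).

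Genes of elongation and of the single strand gave values on both sides of 0. Pole, the catalytic subunit of polymerase epsilon, had log2 levels of 10.32, 10.16 and 10.22 on the unstimulated arrays and 10.30, 10.75 and 10.52 on the estradiol arrays. Estradiol 2 set its upper end, the groups overlapped, and the change was 0.29 ± 0.11 (limma adjusted p = 0.161). Pole2, its second subunit, had log2 levels of 10.70, 10.76 and 10.86 on the unstimulated arrays and 10.83, 10.58 and 10.69 on the estradiol arrays and a change of -0.070 ± 0.079. Pold1 and Pold2 gave 0.038 and -0.045. Rpa3, the smallest subunit of the single-strand binding protein, had log2 levels of 11.46, 11.63 and 11.51 on the unstimulated arrays and 11.47, 11.15 and 11.29 on the estradiol arrays. Its groups overlapped (-0.22 ± 0.091, limma adjusted p = 0.170).

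Rpa2, the middle subunit, had log2 levels of 11.62, 11.57 and 11.62 on the unstimulated arrays and 11.65, 11.76 and 11.66 on the estradiol arrays. Its estradiol arrays were higher by 0.085, with its other probe set at -0.23, and Rpa1 gave 0.014. Lig1, the ligase that joins Okazaki fragments, had log2 levels of 11.34, 11.43 and 11.35 on the unstimulated arrays and 11.09, 11.45 and 11.21 on the estradiol arrays, which overlapped (-0.13 ± 0.093). Fen1, the flap nuclease of the same step, had log2 levels of 13.42, 13.36 and 13.40 on the unstimulated arrays and 13.41, 13.47 and 13.45 on the estradiol arrays and a change of 0.051 ± 0.047.

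No cyclin E or E2F gene was called. Ccne1 had log2 levels of 10.31, 10.32 and 10.27 on the unstimulated arrays and 10.33, 10.51 and 10.28 on the estradiol arrays and a change of 0.075 ± 0.071. Ccne2 had log2 levels of 10.61, 10.62 and 10.66 on the unstimulated arrays and 10.66, 10.54 and 10.62 on the estradiol arrays and a change of -0.021 ± 0.053. E2f1 was at -0.0041 ± 0.048, with a 95% interval of -0.12 to 0.11. Slbp had log2 levels of 12.27, 12.19 and 12.27 on the unstimulated arrays and 12.46, 12.27 and 12.32 on the estradiol arrays and a change of 0.10 ± 0.064.

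Genes around this machinery were read from 3 further lists. Of 23 other replication genes measured of 33 listed, 1 was called higher with estradiol, Pole4 (0.31 ± 0.065), an accessory subunit of polymerase epsilon, and 1 lower, Gins1 (-0.29 ± 0.045), a subunit of the GINS complex that travels with the helicase. Each is 4.35% of the list, beside 6.75% of all genes called higher and 4.66% called lower, and the median was -0.086. Of 23 G1/S control genes measured of 26, 5 were called higher (21.7%, beside 6.75% of all genes) and 1 lower (4.35%, beside 4.66%). Cdkn1a, the CDK inhibitor p21, rose by 0.81 ± 0.051, E2f5 by 0.32 and Rb1 by 0.26. The D-type cyclins Ccnd2 and Ccnd1 rose by 0.49 ± 0.077 and 0.42 ± 0.062. Ccnd2 had low log2 levels, 6.97 to 7.23 on the unstimulated arrays and 7.51 to 7.62 on the estradiol arrays. Those of Ccnd1 were 12.50 to 12.62 and 12.92 to 13.08. Cdkn2c, the CDK inhibitor p18, was at -0.78 ± 0.11. Of 19 mitosis genes measured of 20, limma called 7 lower (36.8%, beside 4.66% of all genes) and 0 higher. At an unadjusted p under 0.05 there were 14 lower (73.7%, beside 11.2%) and 0 higher. Their median was -0.23, and the lowest p was that of Cdc20 (-0.26 ± 0.045), the activator of the anaphase-promoting complex. Groups were apart in 14 of these 19 mitosis genes, all lower (beside 14.9% of all genes).

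In the lavage, limma called 0 of the 41 genes in either direction between pregnant and control mice, beside 0% of all genes called higher and 0% called lower. Of the 41 genes 36 were positive (40 with the arrays set to a common median), with a median log2 change of 0.19 against 0.030 over all genes. At an unadjusted p under 0.05 there were 6 genes, all positive (14.6%, beside 6.14% of all genes higher and 3.24% lower). Groups did not overlap in 8 genes higher in pregnant mice (19.5%, beside 10.7%) and in 0 lower (beside 4.99%). None of the other fits called one of the 41. Several probe sets were held for 23 of the 41 genes, and in 6 of these they changed in opposite directions.

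The shift was largest in a pair of arrays. Pregnant 3 was the highest of the 6 lavage arrays for 32 of the 41 genes, and Control 1 the lowest for 30. The median was 0.11 without Control 1, 0.13 without Pregnant 3 and 0.055 without both, an alternative added after seeing the data, in which 30 of 41 genes were positive and 0 had an unadjusted p under 0.05.

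Other cell types' markers differed on these arrays as well. The mean log2 level of 11 T cell markers was highest on Control 1 (7.74) and lowest on Pregnant 3 (6.59), with Control 2 at 7.60 and the other arrays between 6.71 and 6.93. Summed T cell marker intensity ranged from 12280 to 13800 in the control group and from 12050 to 12870 in the pregnant group. In these groups 2 to 5 and 2 of 11 genes lay above the 40th percentile. Cd2, at log2 levels of 13.31 to 13.51, was the brightest marker in these sums, and the next, Il7r, lay at 9.45 to 10.78. The median log2 change of the T cell markers was -0.82, with 3 positive and 8 negative. Groups were apart in 4 lower (36.4%, beside 4.99% of all genes) and 0 higher. The mean of 6 neutrophil markers was highest on Control 1 (9.48), against 8.35 to 9.17 elsewhere, with 4 of 6 above the percentile in both groups and summed intensities of 5987 to 20650 and 6378 to 11380. The median log2 change of the neutrophil markers was 0.095, with 4 positive and 2 negative. Groups were apart in 1 lower (16.7%, beside 4.99% of all genes) and 0 higher. S100a9 was at 13.57 on Control 1 and 10.32 to 11.98 on the other lavage arrays. Airway and alveolar epithelium markers were higher in pregnant mice in 9 of 11 cases, with a median log2 change of 0.46, and groups were apart in 3 higher (27.3%, beside 10.7% of all genes) and 1 lower. Their mean log2 level was 10.14, 9.23 and 9.61 on Control 1, 2 and 3 and 10.11, 10.48 and 9.60 on Pregnant 1, 2 and 3, with 7 to 9 and 7 to 10 of 11 above the percentile and summed intensities of 26880 to 36440 and 31290 to 40980. Of 3 erythroid markers, Alas2 alone lay above the percentile, at 7.59 to 9.71 on the control arrays and 8.45 to 11.49 on the pregnant arrays, which overlapped, with summed intensities of the 3 of 255.7 to 898.5 and 413.9 to 2943. B cell, fibroblast and endothelium markers lay above it in 0 cases. The part of these cells in the result was not tested.

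**Figure D4:**
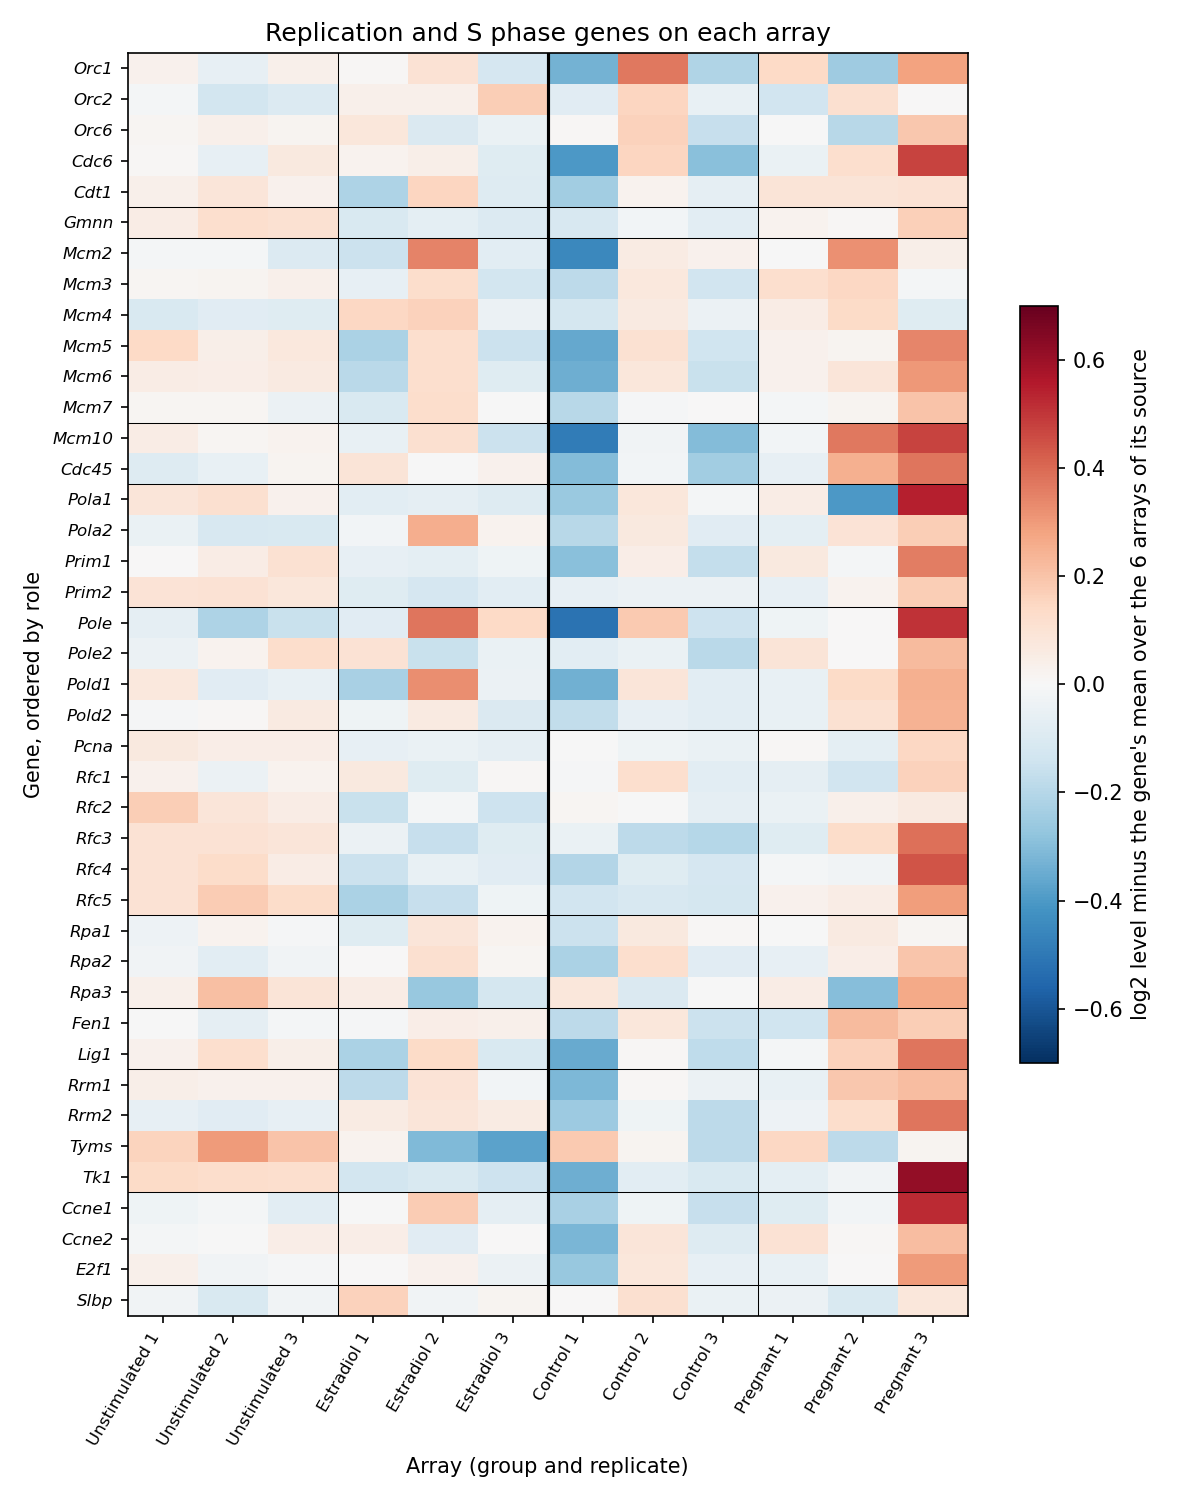
Each row is one of the 41 genes, ordered by role, and each column an array; colour gives the log2 level minus the gene's mean over the 6 arrays of its source. Control 1 is the bluest and Pregnant 3 the reddest lavage column. Among RAW264.7 columns, Estradiol 2 is the reddest for Mcm2, Mcm3, Mcm4, Mcm6, Mcm7, Pola2, Pole and Pold1. It is the bluest of them for Prim1, Prim2 and Pole2.

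Helicase activation had the largest values. Mcm10 had log2 levels of 8.03, 8.50 and 8.21 on the control arrays and 8.50, 8.89 and 8.99 on the pregnant arrays. The lowest pregnant array matched the highest control array closely, and the change was 0.54 ± 0.17 (1.46-fold, 95% interval 0.15 to 0.94, limma adjusted p = 0.461). Cdc45 had log2 levels of 9.09, 9.38 and 9.15 on the control arrays and 9.33, 9.64 and 9.77 on the pregnant arrays, which overlapped, and a change of 0.38 ± 0.13 (limma adjusted p = 0.485). The 6 helicase subunits were all positive, from 0.067 to 0.28. Mcm6 had log2 levels of 11.25, 11.68 and 11.44 on the control arrays and 11.62, 11.68 and 11.90 on the pregnant arrays, with Control 1 lowest and Pregnant 3 highest, and a change of 0.28 ± 0.13. Mcm4 had log2 levels of 11.89, 12.08 and 11.97 on the control arrays and 12.06, 12.15 and 11.93 on the pregnant arrays, which overlapped widely.

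Licensing genes were uneven. Cdt1 had log2 levels of 11.87, 12.13 and 12.04 on the control arrays and 12.20, 12.20 and 12.21 on the pregnant arrays. The pregnant arrays were close together and above all controls, with a change of 0.19 ± 0.081 (limma adjusted p = 0.538). Cdc6 gave 0.37 ± 0.19, Orc1 0.12 ± 0.22 and Orc6 -0.0031. Orc2 had log2 levels of 10.31, 10.54 and 10.34 on the control arrays and 10.25, 10.50 and 10.39 on the pregnant arrays, which overlapped (-0.014 ± 0.095). Other probe sets of Orc2 gave 0.065 and -0.46. Gmnn had log2 levels of 12.04, 12.13 and 12.07 on the control arrays and 12.17, 12.15 and 12.31 on the pregnant arrays. All pregnant arrays lay above the controls, and the change was 0.13 ± 0.069 (limma adjusted p = 0.595).

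For the clamp loader, Rfc5 had log2 levels of 9.21, 9.24 and 9.23 on the control arrays and 9.38, 9.40 and 9.64 on the pregnant arrays. The controls were close together and below every pregnant array, with a change of 0.25 ± 0.085 (95% interval 0.043 to 0.45, limma adjusted p = 0.483). Rfc3 had log2 levels of 9.39, 9.26 and 9.24 on the control arrays and 9.35, 9.57 and 9.82 on the pregnant arrays, which overlapped (0.29 ± 0.12). Rfc4 gave 0.27 ± 0.13 with its groups apart, and Pcna, Rfc2 and Rfc1 gave 0.054, 0.036 and -0.022.

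Primase and polymerase genes were all positive. Prim2 had log2 levels of 10.54, 10.55 and 10.55 on the control arrays and 10.54, 10.62 and 10.76 on the pregnant arrays, and Pola1, the most scattered of the role, 8.82, 9.16 and 9.07 on the control arrays and 9.13, 8.68 and 9.62 on the pregnant arrays. Their changes were 0.094 ± 0.074 and 0.13 ± 0.23, and both groups overlapped. Pole2 had log2 levels of 9.69, 9.71 and 9.57 on the control arrays and 9.85, 9.77 and 9.98 on the pregnant arrays. Its groups were apart (0.21 ± 0.080, limma adjusted p = 0.502). Pole had log2 levels of 8.39, 9.10 and 8.77 on the control arrays and 8.88, 8.91 and 9.41 on the pregnant arrays, with a change of 0.32 ± 0.21, and Pold1 and Pold2 gave 0.22 and 0.20.

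Single-strand binding genes were near 0: Rpa3 had log2 levels of 10.51, 10.32 and 10.43 on the control arrays and 10.48, 10.13 and 10.69 on the pregnant arrays (0.014 ± 0.14) and Rpa1 gave 0.050. Rpa2 had log2 levels of 10.51, 10.85 and 10.66 on the control arrays and 10.68, 10.79 and 10.93 on the pregnant arrays, which overlapped (0.12 ± 0.11). The other Rpa2 probe set gave -0.025. Lig1 had log2 levels of 10.03, 10.39 and 10.20 on the control arrays and 10.37, 10.54 and 10.75 on the pregnant arrays. Only Control 2 reached into the pregnant range, and the change was 0.35 ± 0.13 (limma adjusted p = 0.494). Fen1 had log2 levels of 12.43, 12.69 and 12.46 on the control arrays and 12.47, 12.84 and 12.78 on the pregnant arrays and a change of 0.17 ± 0.12.

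In nucleotide supply, Rrm2 had log2 levels of 11.82, 12.04 and 11.88 on the control arrays and 12.04, 12.19 and 12.45 on the pregnant arrays. The groups touched at Control 2 and Pregnant 1, and the change was 0.31 ± 0.12 (limma adjusted p = 0.499). Tk1 had log2 levels of 10.14, 10.41 and 10.38 on the control arrays and 10.41, 10.46 and 11.10 on the pregnant arrays. Pregnant 3 stood well above every other lavage array, and the change of 0.35 ± 0.19 had a 95% interval of -0.11 to 0.81. Tyms had log2 levels of 5.84, 5.67 and 5.47 on the control arrays and 5.80, 5.47 and 5.67 on the pregnant arrays, below the 40th percentile throughout, and Rrm1 gave 0.23 ± 0.12.

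Ccne2 had log2 levels of 8.85, 9.25 and 9.08 on the control arrays and 9.27, 9.18 and 9.38 on the pregnant arrays, which overlapped (0.21 ± 0.12). Ccne1 had log2 levels of 8.69, 8.89 and 8.76 on the control arrays and 8.83, 8.90 and 9.44 on the pregnant arrays, again with Pregnant 3 highest (0.28 ± 0.17). E2f1 gave 0.16 ± 0.13, with its other probe set at -0.016. Slbp had log2 levels of 12.02, 12.13 and 11.97 on the control arrays and 11.97, 11.91 and 12.09 on the pregnant arrays and a change of -0.044 ± 0.077. Among the further lists, 0 genes were called by limma in the pregnancy comparison, 18 of 23 other replication genes were positive and so were 19 of 19 mitosis genes, with medians of 0.098 and 0.31. At an unadjusted p under 0.05 there were 6 mitosis genes, all positive (31.6%, beside 6.14% of all genes). At the same threshold 2 other replication genes passed, in opposite directions. Each is 4.35% of the list, beside 6.14% of all genes higher and 3.24% lower. They were Asf1b, a histone chaperone, at 0.38 and Mcm9, a relative of the helicase subunits, at -0.64. Mcm9 lay below the 40th percentile on all 6 arrays. Of 23 G1/S control genes 16 were positive, with a median of 0.085, and 2, both positive, had an unadjusted p under 0.05 (8.7%, beside 6.14% of all genes higher).

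**Figure D5:**
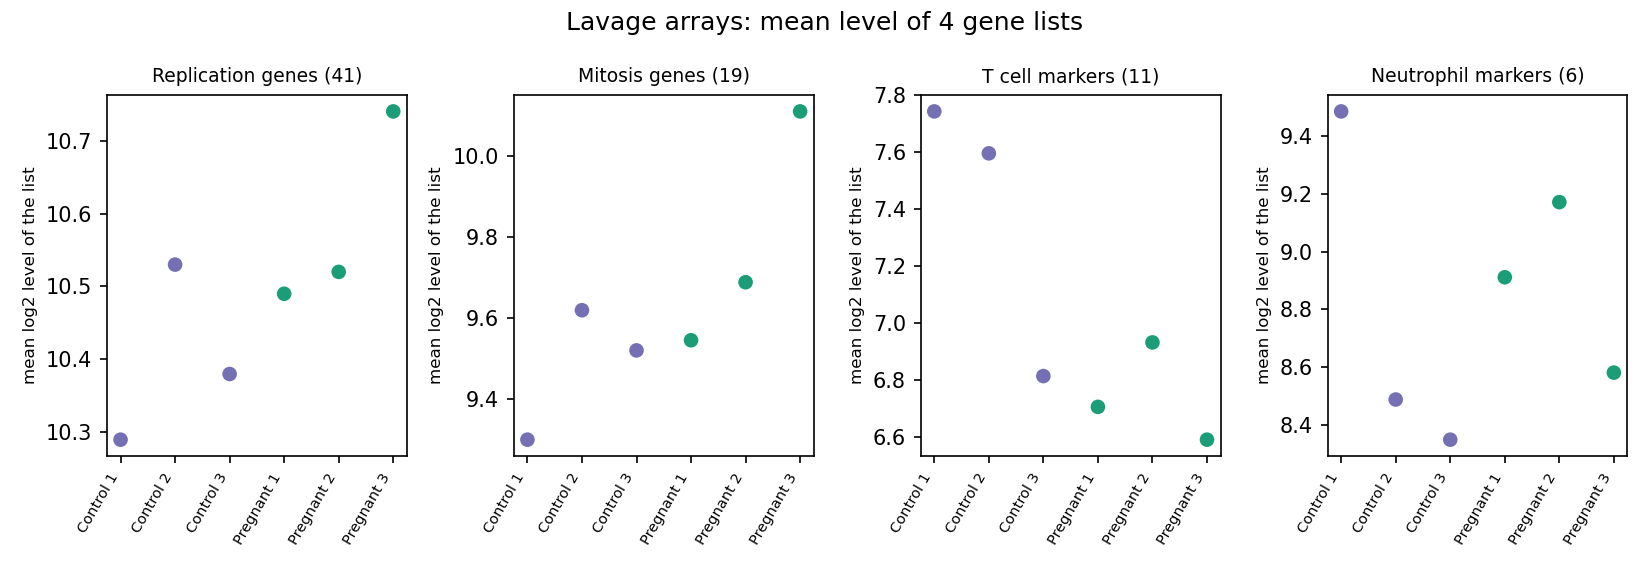
Mean log2 level of 4 gene lists on the 6 lavage arrays, with the number of genes in each list in brackets. The replication and mitosis genes were lowest on Control 1 and highest on Pregnant 3, and the T cell markers were highest on Control 1 and lowest on Pregnant 3.

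The estradiol change minus the pregnancy change was tested over all 12 arrays. Limma called 0 of the 41 genes higher, beside 2.22% of all genes, and 2 lower (4.88%), beside 2.21% of all genes. The 2 were Rfc5, with a difference of -0.52 ± 0.11 (95% interval -0.76 to -0.29, adjusted p = 0.0215), and Gmnn, at -0.32 ± 0.077 (95% interval -0.49 to -0.15, adjusted p = 0.0452). Both were lower with estradiol and had positive values in pregnancy. Gmnn kept its call in 1 of the 12 fits that left out 1 array, without Pregnant 2, and Rfc5 lost its call without Unstimulated 2, Unstimulated 3 or Estradiol 1. The median of the 41 was -0.24, against -0.012 over all genes, and 16 genes had an unadjusted p under 0.05, all negative (39%, beside 9.92% of all genes lower and 9.4% higher). Without Pregnant 1, 4 genes were called lower, and the share of all genes called in that fit is not given here.

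The 35 genes with a promoter window were set out by their E2F-type letters, as a description. The 12 genes with a match had median log2 changes of -0.085 with estradiol, 0.21 in pregnancy and 1.16 between the sources. The 23 genes without one had medians of -0.0086, 0.17 and 1.02. In pregnancy 12 of the 12 with a match were positive and 18 of the 23 without one, and Rfc5 and Tk1, whose printed stretches hold no match, were among the 4 genes called lower with estradiol.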

How the data were processed

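Total RNA of 12 mouse samples was hybridised to Affymetrix arrays. The values deposited by the authors are linear intensities per probe set, made with RMA per the submitters' processing notes, version not stated; the aligner or genome build is not given in the sources used here. RMA levels out overall differences between arrays, so changes are relative to the array as a whole. Of 22690 probe sets, 64 controls were left out, 20380 name 1 gene symbol, 691 several and 1555 none; names come from the supplied platform annotation. The probe set with the highest mean was kept per gene (12393 genes).

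Values were analysed as log2(intensity + 1). Limma 3.58.1 in R 4.3.3 (lmFit, eBayes) was fitted to the 6 arrays of each comparison, or all 12 for the difference of changes, with two-sided p-values adjusted by Benjamini-Hochberg over all genes and calls at 0.05. Dim genes are those that exceeded the 40th percentile of an array on fewer than 3 of the arrays in the fit. Scripts were tested on simulated data. The R package data.table, version 1.17.8, Python 3.11.15, pandas 2.3.3, numpy 2.4.6 and matplotlib 3.10.9 were also used.

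Replicates were numbered in deposit order and are not paired. The genes and lists were chosen with earlier results of these data known. Array values are printed for each gene called in the estradiol or pregnancy comparison, and for up to 2 genes of each role with the smallest p in either. From the further lists up to 6 genes with the smallest p are named. Alternatives were quantile normalization, a common median, a filter on dim genes, the mean of probe sets, a trended robust prior, array weights, 1 fit of all 12 arrays, a threshold of 0.01, no pseudocount, and leaving out arrays. Promoter windows come from RefSeq (GRCm38.p6).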

Additional observations from a re-analysis of the deposited data

Results flagged for a closer look

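For 2 genes the estradiol change in RAW264.7 cells and the pregnancy change in lavage macrophages differed by the test of the difference itself, limma over all 12 arrays. Rfc5, a clamp loader subunit, had a difference of -0.523 log2 units (adjusted p = 0.0215), and Gmnn, the licensing inhibitor, one of -0.317 (adjusted p = 0.0452). The adjusted p ranged over the alternatives from 0.0131 to 0.0662 for Rfc5 and from 0.0103 to 0.118 for Gmnn. Both were lower on all 3 estradiol arrays than on the unstimulated arrays and higher on all 3 pregnant arrays than on the control arrays. The groups also differ in cell source and in culture, which cannot be told apart in this difference.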

How the results depend on the processing

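With estradiol, the count called lower (4) was 2 with a common median, 8 with the filter on dim genes, 8 with a trended robust prior, 16 with array weights, 1 with all 12 arrays in 1 fit and 0 at a threshold of 0.01. The count called higher (0) was 1, 2 and 3 with the filter, the trended prior and array weights, whose estimation stopped before convergence. Leaving out 1 array gave 0 to 5 lower, 0 to 1 higher and medians of -0.0886 to -0.0137. The pregnancy calls stayed at 0, and the median without single arrays or without Control 1 and Pregnant 3 ran from 0.0552 to 0.246. The source median (1.03) was 1.16 with the mean of probe sets. For the difference of changes, the count called lower (2) was 1 with a common median, 10 with array weights, 0 at a threshold of 0.01, 0 to 4 without single arrays and 1 without Estradiol 2 and Pregnant 2. The last alternative and that without Control 1 and Pregnant 3 were chosen after seeing the data. The shares of all genes called in the alternatives are not given here, so their counts stand without a background. The other 157 values for counts and medians over the 41 genes stayed within 1.5 times the count or 1 SD of the replicates, without a check of direction. Many of these values were counts of 0 that stayed at 0. No call reversed. By role, estradiol medians near 0 changed sign with a common median: the helicase from -0.018 to 0.0098, licensing from -0.013 to 0.015, G1/S regulators from -0.0041 to 0.024, and polymerases epsilon and delta from -0.0032 to 0.025 (3.0e-04 with quantile normalization). The causes were not tested, except that leaving out arrays tests fewer samples. No paired analysis was possible because replicate numbers were given in deposit order only. The dim Tyms probe set limits what its values show.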
